A study of Mus musculus with 2 samples.

Results

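Interferon-stimulated genes were examined in the accessible chromatin of regulatory T cells of the mouse, a CD4 lineage that depends on Foxp3 and keeps immune responses in check. The set was a list of 40 genes named for their place in the interferon response, and all 40 were found in the GENCODE M21 annotation, 39 of them as protein-coding genes and Mx2 as a polymorphic pseudogene. They stood against 21938 protein-coding genes of chromosomes 1 to 19, X and Y. Chromatin was profiled by ATAC-seq, in which the Tn5 transposase cuts accessible DNA. Primary cells came from an adult male mouse aged 4 months, of a cross named Foxp3CreERT2 x Rosa26YFP, which carries a Cre recombinase at Foxp3 that tamoxifen can induce and a YFP reporter at Rosa26. The labels trace the cells to haematopoietic cells of the bone marrow and name no treatment and no interferon exposure. The 2 libraries were technical replicates of 1 biological replicate, and their reads were pooled in the deposited peak lists. With 1 sample and no other group, every value below is a description of that pool, no spread between animals could be given and no p-value was computed.

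Interferons are secreted proteins that cells release on sensing a virus or another pathogen. Type I and type III interferons signal through JAK kinases to the complex ISGF3, which contains Stat2 and Irf9 and binds the interferon-stimulated response element (ISRE). Interferon gamma acts through the gamma-activated site (GAS), and factors of the IRF family also bind ISRE-like DNA. The genes switched on this way encode sensors of foreign nucleic acid, enzymes that degrade or modify viral products, GTPases that attack the membranes of intracellular pathogens, and factors that amplify or end the response. Regulatory T cells carry receptors for interferons and respond to them.

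The label of the cells was checked against marker genes. Of the T cell and regulatory T cell markers, Il2ra, Ctla4, Ikzf2, Tnfrsf18, Cd3e and Cd4 had a peak within 1 kb of a transcription start site (TSS) in the main list. Of all coding genes, 51.9% had such a peak. The strongest one had a signal of 15.4 at Cd3e and 9.7 at Il2ra. The signal was 5.52 at Ikzf2, 5.47 at Ctla4, 4.56 at Cd4 and 2.69 at Tnfrsf18, against a median of 13.2 over that list. Foxp3 had a peak within 1 kb of a TSS only in the longer list, with a signal of 2.94. Of the markers of other cells, Cd8a, Cd79a, Itgam, Csf1r, Lyz2, Ncr1 and Siglech had no promoter peak in either list. The main list, thresholded on irreproducible discovery rate (IDR, which falls as the ranking of peaks becomes more alike in 2 inputs), held 34610 peaks, and the longer pseudoreplicated list held 58871. The signal of a peak is the authors' own enrichment value, it serves here only to describe and rank peaks within a list, and the sequencing depth behind it is unknown. In pooled cells, a site open in few cells and a site weakly open in many cannot be told apart.

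Most interferon-stimulated genes had an open promoter in these cells. A promoter peak, meaning a peak with its strongest summit within 1 kb of any annotated TSS of the gene, was present at 35 of the 40 genes (87.5%) in the thresholded list, against 51.9% of all coding genes. The exceptions were Oas1a, Oas2, Oas3, Oasl1 and Ifi44. In the pseudoreplicated list 39 of 40 genes (97.5%) had a promoter peak, against 56.9% of coding genes, and Oas2 was the gene without one. With the principal TSS alone (the start of the principal transcript in the annotation), the counts were again 35 and 39, against 48.1% and 53.0% of coding genes.

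The peaks were of middling strength. The signal of the promoter peak nearest the principal TSS had a median of 14.1 over the 35 genes (range 6.06 to 25.5), against a median of 17.2 over the 10559 coding genes with such a peak. Of the 35, 11 lay above that median of coding genes. Among all thresholded peaks, promoter or not, the 35 peaks ranked between percentile 9.68 and percentile 95.7 by signal, with a median of 54.8. The median −log10 p of the strongest promoter peak was 260 in the set and 323 in coding genes with a promoter peak, and the median width was 845 bp and 995 bp. With only the peaks that reach the median signal of the list, 13.2, a promoter peak remained at 25 of 40 genes (62.5%), against 38.6% of coding genes. With the median −log10 p of 115 as the limit, 33 of 40 (82.5%) had one, against 44.1%.

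These peaks sat on the start sites. Of the 35 peaks nearest the principal TSS, 33 covered that base, and the peaks of Gbp3 and Isg20 did not. The summit lay a median of 64 bp from the principal TSS, against 72 bp in coding genes, and it was upstream at 23 of the 35 genes. The shares of coding genes with a covered start or an upstream summit were not computed. These counts are thus not shown to be particular to the set.

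**Figure D1:**
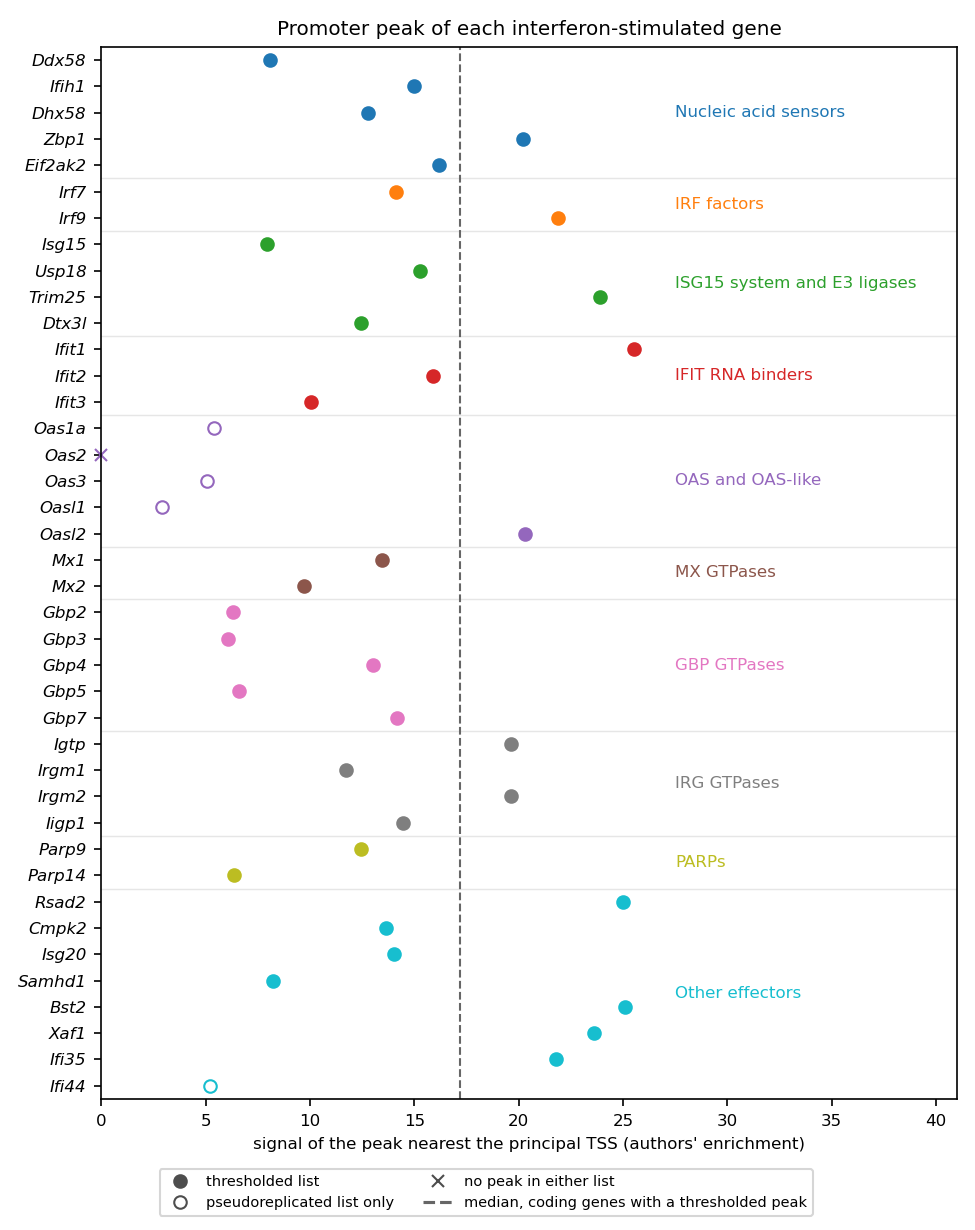
Signal of the promoter peak nearest the principal TSS (horizontal axis, the authors' enrichment value) for each of the 40 genes, grouped by role. Filled points are peaks of the thresholded list, open points are peaks found only in the pseudoreplicated list, and the cross marks Oas2, which had no peak in either; the dashed line is the coding-gene median of 17.2, and 11 genes lie to its right.

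Many of these peaks lay over the letters of the ISRE. The core was searched as GAAA, 2 bases of any kind and GAAA, on both strands in 200 bp centred on the summit. It was present in 25 of the 49 distinct thresholded peaks within 1 kb of a TSS of the set (51.0%), against 2.97% of all 13691 promoter peaks. A stricter form, the core followed by CT, was present in 16 of 49 (32.7%), against 0.526%. Counted by gene, 25 of 40 genes (62.5%) had a promoter peak with an ISRE core, against 1.67% of coding genes, and 17 (42.5%) had one with the stricter form, against 0.305%.

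The stretches below show the elements in the strongest peaks of this kind, each read 5′ to 3′ on the strand of its gene in GRCm38. Capitals mark the ISRE core, which reads as its reverse complement where the element lies on the other strand. Oasl2 and Eif2ak2 are shown as 30 bases because their elements lie in annotated untranslated sequence. Igtp shares its peak with Irgm2.
Ifit1, chr19:34640760-34640819, plus strand: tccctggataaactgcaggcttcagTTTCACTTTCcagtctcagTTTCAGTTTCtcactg
Bst2, chr8:71537562-71537621, minus strand: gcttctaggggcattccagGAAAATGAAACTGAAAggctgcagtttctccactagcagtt
Rsad2, chr12:26456538-26456597, minus strand: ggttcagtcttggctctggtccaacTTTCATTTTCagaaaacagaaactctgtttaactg
Oasl2, chr5:114897459-114897488, plus strand: ctccctgcagTTTCACTTTCaattcttgtc
Igtp, chr11:58199497-58199556, plus strand: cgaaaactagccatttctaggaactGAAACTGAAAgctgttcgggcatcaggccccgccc
Eif2ak2, chr17:78882535-78882564, minus strand: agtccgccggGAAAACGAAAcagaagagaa
Usp18, chr6:121245822-121245881, plus strand: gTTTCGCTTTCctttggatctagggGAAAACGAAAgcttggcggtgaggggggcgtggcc

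Ifit1 and Usp18 each hold a pair of separate cores in this stretch, at −86 and −67 bases from the principal TSS in Ifit1 and at −83 and −59 in Usp18. In Bst2 the cores start at −146 and −140 and overlap. Across the set, 10 of 40 genes had more than 1 core start in the 250 bases before to 50 bases after the principal TSS. Over the 35 core starts in those sequences, the median position was −71 (range −215 to 19). The share of coding genes with more than 1 core start was not computed. In the 25 peaks with a core, the summit lay a median of 33 bp from the centre of the nearest one, against 35 bp in the 407 promoter peaks of the whole list that have one.

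Zbp1, a sensor of Z-form nucleic acid, had 4 core starts, at −99, −93, −51 and −45. The 160 bases before its principal TSS are printed to show how the matches lie together, a stretch chosen after its values were seen. Capitals mark matches to the ISRE core, to the GAS core (TTCNNNGAA) and to the RUNX letters (TGTGGT, here as the reverse complement), and some of these matches touch or overlap.
Zbp1, chr2:173218924-173219083, minus strand: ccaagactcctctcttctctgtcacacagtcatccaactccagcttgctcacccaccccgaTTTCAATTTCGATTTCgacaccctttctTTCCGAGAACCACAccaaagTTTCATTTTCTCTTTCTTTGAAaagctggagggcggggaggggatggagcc

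Fewer peaks of the set held the GAS letters. The GAS core was present in 10 of 49 peaks (20.4%), against 4.6% of promoter peaks. The stricter TTCCNGGAA, a subset of the core, was present in 3 of 49 (6.12%), against 0.971%. By gene, 9 of 40 (22.5%) had a GAS core in a promoter peak, against 2.84% of coding genes. They were immunity-related GTPases (3 of 4 genes), guanylate-binding GTPases (2 of 5), nucleic acid sensors (2 of 5), Irf9 and Ifi35, while 0 of 3 IFIT, 0 of 5 OAS and 0 of 2 MX genes had one. ISRE and GAS cores occurred in promoter peaks of the same gene at 7 of the 40 genes. The share of coding genes with both was not computed. The 3 peaks with the stricter letters are shown with those letters in capitals.
Gbp7, chr3:142530205-142530264, plus strand: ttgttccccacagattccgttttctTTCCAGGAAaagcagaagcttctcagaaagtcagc
Irgm2, chr11:58214877-58214936, plus strand: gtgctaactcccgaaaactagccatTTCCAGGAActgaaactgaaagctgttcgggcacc
Eif2ak2, chr17:78881985-78882044, minus strand: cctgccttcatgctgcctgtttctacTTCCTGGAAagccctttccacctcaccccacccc

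The stretch of Irgm2 lies at a downstream start of the gene and is nearly a copy of the one printed for Igtp. Of the 49 bases that align, 47 were identical. The differences were T18C and T48C, with positions counted from 1 at the 5′ end of the printed Igtp stretch, the Igtp base first and the Irgm2 base last. At the first of them Igtp keeps the GAS core and Irgm2 has the stricter letters.

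Other letters were searched for comparison in the same 200 bp. The ETS-IRF composite (GGAA, 2 bases of any kind and GAAA) was in 7 of 49 peaks (14.3%), against 1.82% of promoter peaks. The AP-1 letters TGANTCA were in 9 (18.4%), against 4.5%, the RUNX letters in 10 (20.4%), against 11.1%, and the NF-kB letters (GGGA, 2 bases of any kind and TTCC) in 3 (6.12%), against 1.39%. The share of the set was the lower one for the remaining letters. The KLF/SP letters GGGCGG were in 18 of 49 (36.7%), against 52.3%, and the ETS letters CCGGAAGT in 1 (2.04%), against 7.08%. The AP-1-IRF composite, GAAA joined to the AP-1 letters, was in 0 of 49, against 0.0657%. A match is a match of letters and not evidence of binding.

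**Figure D2:**
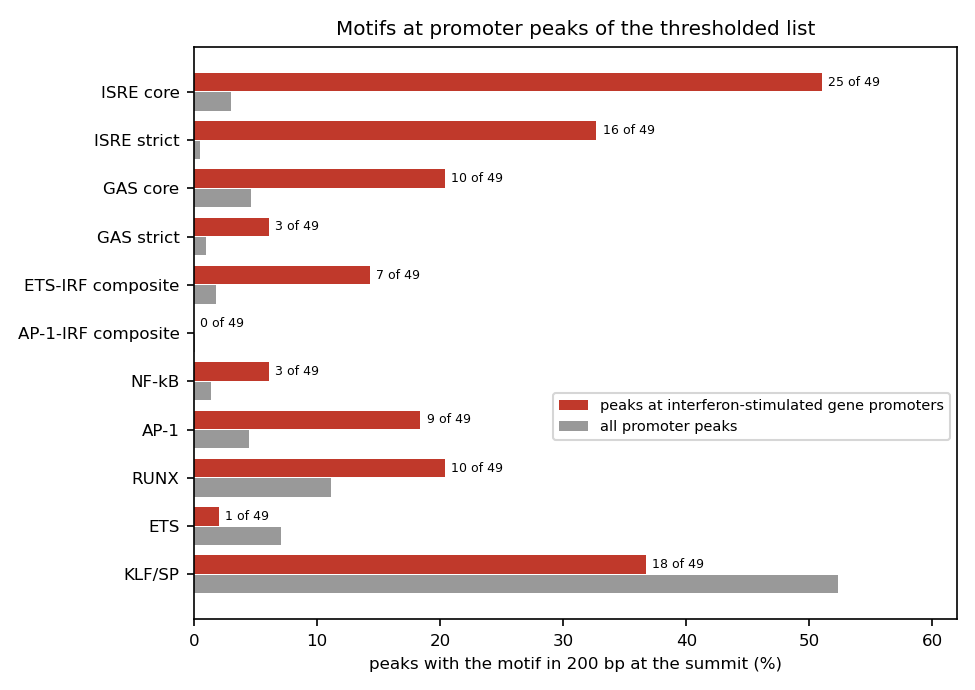
Percentage of thresholded promoter peaks that hold each motif in the 200 bp at the summit, for the 49 peaks at interferon-stimulated genes (red) and all 13691 promoter peaks (grey). The ISRE core stands at 51.0% and 2.97%, and the grey bar is the longer one for the KLF/SP, ETS and AP-1-IRF letters.

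Most promoters of the set lay in sequence with few CpG dinucleotides. The ratio of observed to expected CpG in the 1000 bp around the principal TSS had a median of 0.272 in the set and 0.571 in all coding genes. When coding genes were ranked by this ratio into 3 equal classes, 21 of the 40 genes fell in the lowest (below 0.318), 18 in the middle and 1, Trim25, in the highest (above 0.719). In the lowest class 18 of 21 genes of the set (85.7%) had a promoter peak, against 13.3% of the class. In the middle class the count was 16 of 18 (88.9%), against 58.0%, and in the highest it was 1 of 1, against 84.3%. Olfactory and vomeronasal receptor genes make up 19.9% of the lowest class, and without them 16.5% of it had a promoter peak. Among genes of the lowest class with a promoter peak, an ISRE core lay in one at 13 of 18 genes of the set (72.2%), against 8.5% of the 976 coding genes, a comparison added after the data were seen. The AP-1, RUNX, NF-kB, ETS and KLF/SP letters were not compared within these classes. The sequence around a start is part of what was compared here, and its part in whether a peak was called was not tested.

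**Figure D3:**
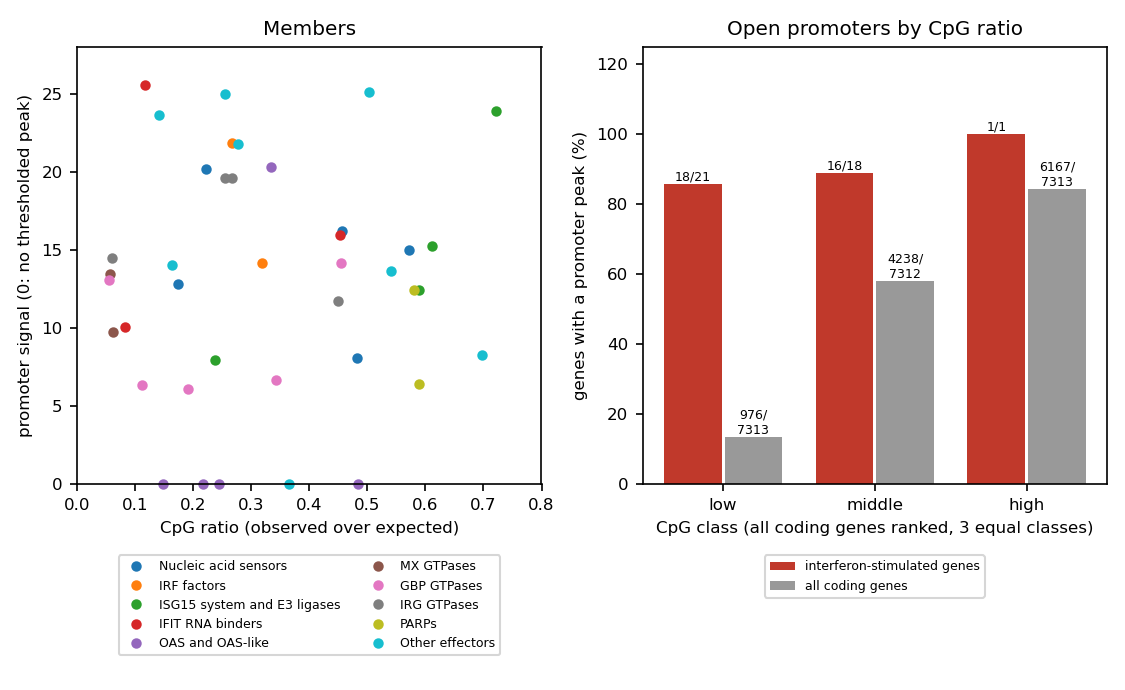
Left, signal of the promoter peak nearest the principal TSS against the CpG ratio of the 1000 bp around it for each gene of the set, coloured by role, with the 5 genes that lack a thresholded peak drawn at 0. Right, percentage of genes with a promoter peak in each CpG class for the set (red, 18 of 21 in the lowest class) and for all coding genes (grey, 976 of 7313).

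The 5 genes grouped here as sensors of foreign nucleic acid all had open promoters with an ISRE core. The promoter peak nearest the principal TSS had a signal of 20.2 at Zbp1, 16.2 at Eif2ak2 (the kinase PKR, which binds double-stranded RNA), 15.01 at Ifih1 (MDA5), 12.8 at Dhx58 (LGP2) and 8.07 at Ddx58 (RIG-I). Ddx58 had a stronger peak, 13.6, with its summit 680 bp inside the gene, and the ISRE core and its stricter form were in the weaker peak at the start (chr4:40239421-40240302). Zbp1 was the strongest of the 5 also by −log10 p, with 516, and Dhx58 the weakest, with 91.6. Of the 35 peaks nearest a principal TSS, 6 fell below the median −log10 p of the list, those of Dhx58 and Ddx58 among them.

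Both transcription factors of the set had open promoters without an ISRE core in them. Irf9, the DNA-binding subunit of ISGF3, had a signal of 21.9 and a GAS core at its peak (chr14:55603775-55604592), with the summit at +110. Irf7, which drives type I interferon genes, had 14.1 and none of the 11 motifs searched.

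Genes of the ISG15 system, a ubiquitin-like modifier with its enzymes, and further E3 ligase and PARP genes ranged widely. Trim25, an E3 ligase that acts on RIG-I, had 23.9, with an ETS-IRF composite and no ISRE core. Usp18, the protease that removes ISG15 and also damps the interferon receptor, had 15.3 at its principal TSS and 17.3 in a peak with its summit 14852 bp downstream, within 1 kb of an internal start. Isg15 itself had a narrow peak of 327 bp with a signal of 7.96, although 3 overlapping cores start at −78, −72 and −66 in its promoter. Dtx3l, an E3 ligase, and its partner Parp9 lie on opposite strands with their nearest starts 90 bp apart and share both of their promoter peaks. The shared peak nearest the starts had 12.4 and held the stricter ISRE, and the other had 14.02, its summit at −700 from the start of Dtx3l. Their neighbour Parp14, a mono-ADP-ribosyltransferase, had a promoter peak of 6.39, the lowest of the 35 genes when each is taken at its strongest.

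The IFIT genes, whose products bind foreign RNA, contained both the strongest peak of the set and a modest one. Ifit1 had a signal of 25.5 and a −log10 p of 476 (chr19:34640277-34641121). Ifit2 had 15.9 with no ISRE core, and Ifit3 had 10.05 with a stricter ISRE. The start of Ifit1bl2 lies 128 bp from that of Ifit1, and the summit they share was at −48 from the start of Ifit1bl2 and at −80 from that of Ifit1. Only 29.2% of the 32-base words around the start of Ifit3 occur once in the genome, against 100% at Ifit1 and Ifit2, and the part of this in the lower value of Ifit3 was not tested. Along the cluster, thresholded peaks with an ISRE core also stood at the starts of Ifit1bl1 and Ifit3b.

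Most OAS genes lacked a thresholded promoter peak. The active enzymes of this family make 2-5A, the messenger that activates RNase L, an activity that mouse Oasl1 lacks. Of the 5 genes Oasl2 had a thresholded promoter peak, with a signal of 20.3. Its summit was at +472 from the principal TSS and −124 from another annotated start. In the pseudoreplicated list Oas1a had 5.43, Oas3 had 5.05 and Oasl1 had 2.92. Oas2 had no promoter peak there either. Ifi44, the other gene without a thresholded peak, had 5.22 in that list. These weak peaks had −log10 p values of 13.1 at Oas1a, 45.4 at Oas3, 12.4 at Oasl1 and 12.3 at Ifi44. The lowest values among the 49 thresholded promoter peaks of the set were 26.8 at the internal start of Samhd1 and 32.3 at a second peak of Igtp, and the lowest of the strongest peak per gene was 82.9. Of the 1000 bp around the start, 66% of 32-base words occur once at Oas1a, 100% at Oas2, 91.0% at Oas3 and 100% at Oasl1, so the sequence of Oas2 and Oasl1 is unique over that window.

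Letters of the ISRE stood at some of these starts. Oas1a, Oas2 and Oas3 have an ISRE core in the 250 bases before to 50 after the principal TSS, and Oasl1 and Ifi44 have neither an ISRE nor a GAS core there. The stretches are shown because they have the letters without a thresholded peak, a choice made after the values were seen, with the core in capitals.
Oas1a, chr5:120907511-120907570, minus strand: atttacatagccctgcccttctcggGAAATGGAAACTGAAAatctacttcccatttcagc
Oas2, chr5:120749890-120749949, minus strand: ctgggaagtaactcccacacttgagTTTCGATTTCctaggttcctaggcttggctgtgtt
Oas3, chr5:120777700-120777759, minus strand: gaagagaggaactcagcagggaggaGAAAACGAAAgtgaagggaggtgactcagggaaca

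The set was also divided by whether the promoter sequence holds an ISRE core. With the core, 19 of 22 genes (86.4%) had a thresholded promoter peak, and without it 16 of 18 (88.9%) had one. Among all coding genes with an ISRE core in that sequence, 47.1% had a promoter peak, against 51.9% of coding genes overall. With the stricter form, 51 of 80 coding genes (63.8%) had one, genes of the set included. In the set it was 11 of 13 genes (84.6%) with that form and 24 of 27 (88.9%) without. The core was in the promoter sequence of 22 of 40 genes (55.0%), against 3.62% of coding genes, and the stricter form in 13 (32.5%), against 0.365%. The GAS core was in 12 (30%), against 8.29%, and its stricter form in 2 (5.0%), against 1.16%.

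Open chromatin was present in the OAS cluster away from these starts. Oas3 had a peak of 13.8 with its summit 1793 bp downstream of its principal TSS, which is the only thresholded peak in its locus. The paralogues Oas1b and Oas1c, which share a start region between Oas3 and Oas1a, had a promoter peak of 26.9 with the stricter ISRE. No thresholded peak lay in Oas1a or within 20 kb of it.

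**Figure D4:**
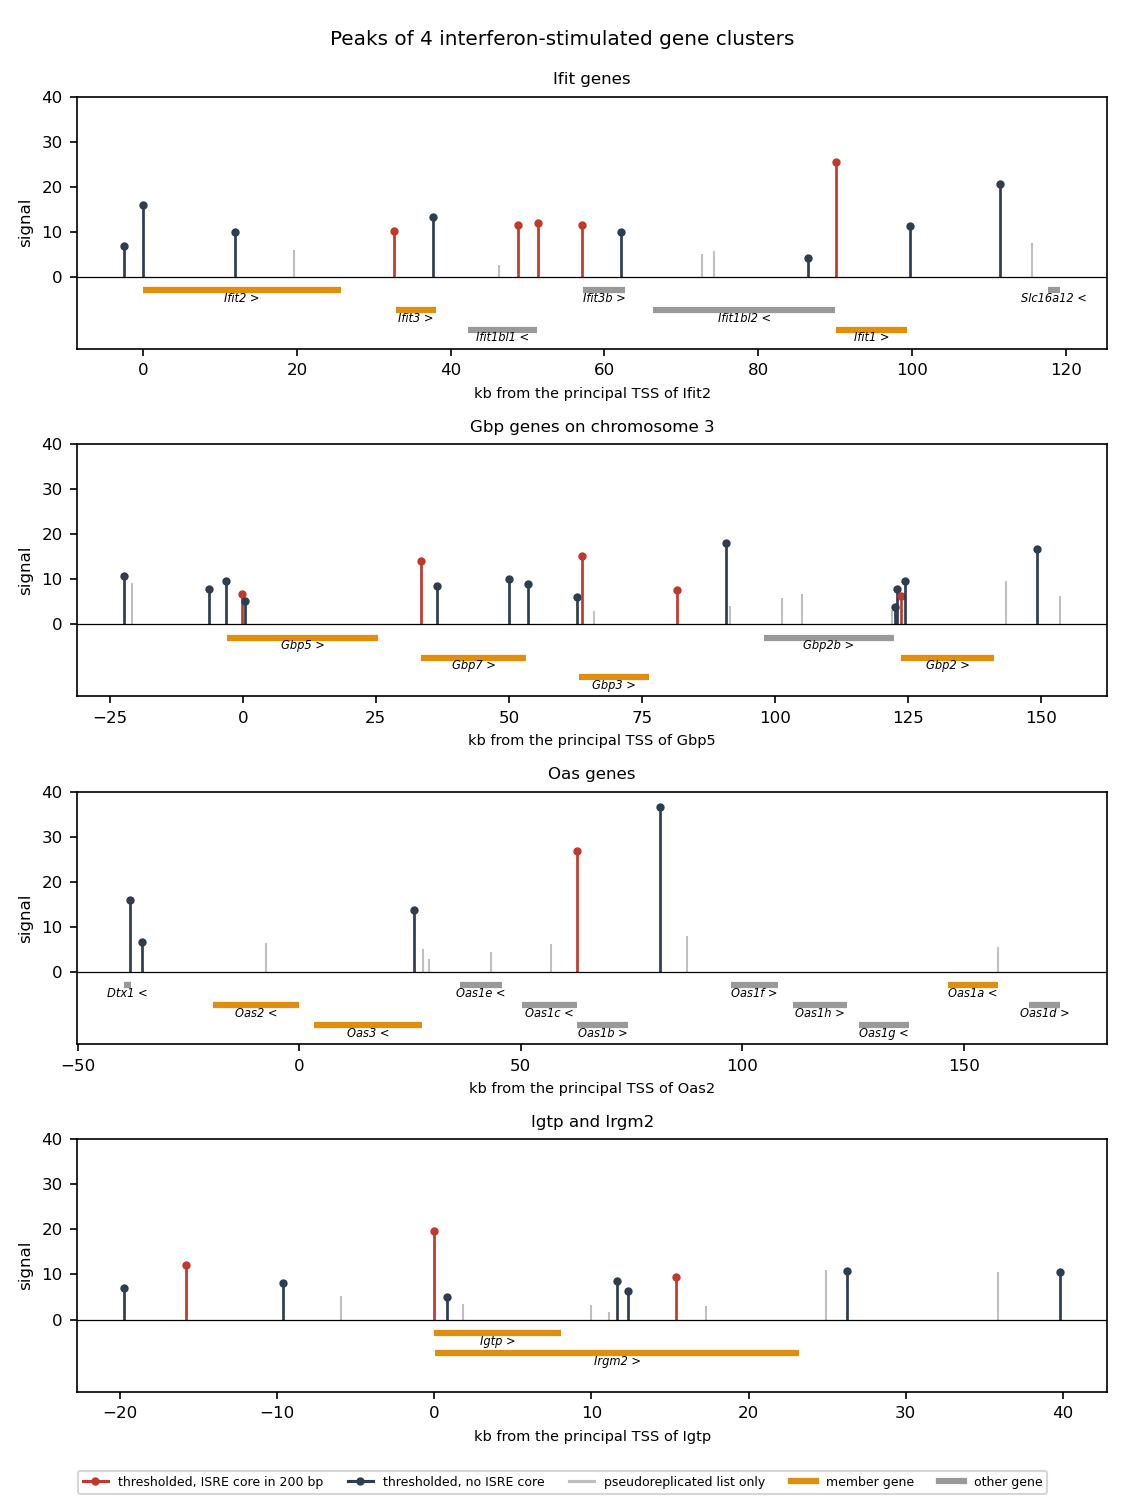
Peaks along 4 gene clusters, with signal (vertical axis) against distance in kb from the principal TSS of the gene named on each axis. Stems with a dot are thresholded peaks, red where the 200 bp at the summit hold an ISRE core, thin grey stems are peaks found only in the pseudoreplicated list, and bars below are genes (orange, the set) with their direction; the starts of Oas1a, Oas2 and Oas3 carry no thresholded stem, while that of Oas1b and Oas1c carries one of 26.9.

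The MX genes belong to a family of dynamin-like GTPases that block viral ribonucleoproteins, and Mx2 is annotated here as a polymorphic pseudogene. Both had peaks at low to middling signal. Mx1 had 13.4 with its summit at −80 from the principal TSS and no ISRE core in the 200 bp. Mx2 had 9.70 in a broad peak (chr16:97534810-97536444) with a stricter ISRE near its summit. That summit was at −899 from the principal TSS and −124 from another annotated start of Mx2. The CpG ratios of both, 0.057 and 0.062, are among the lowest of the set.

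Guanylate-binding proteins, GTPases that interferon gamma induces strongly and that act on vacuoles of intracellular pathogens, all had promoter peaks, and most were weak at the principal start. The signal of the peak nearest the principal TSS was 14.2 at Gbp7, 13.0 at Gbp4, 6.61 at Gbp5, 6.30 at Gbp2 and 6.06 at Gbp3. At 3 of these genes another promoter peak was stronger. It had 15.1 at Gbp3, 498 bp downstream of the principal TSS and 139 bp from another annotated start. The other peak had 9.55 at Gbp2, 766 bp downstream. At Gbp5 it had 9.55, at −3221 from the principal TSS and −299 from another annotated start. ISRE cores lay in promoter peaks of 4 of the 5 genes, and Gbp4 was the exception. The start of Gbp4 coincides within 1 bp with annotated starts of Gbp8 and Gbp9, and 46.9% of the words around it occur once in the genome, so its peak cannot be assigned to 1 of the 3 genes.

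Immunity-related GTPases, which disrupt vacuoles of intracellular parasites in the mouse, were open at all 4 genes and had an ISRE core in a promoter peak at all 4. Igtp and Irgm2, whose starts lie 30 bp apart at the nearest, share a peak of 19.6 (chr11:58199142-58199963). Iigp1 had 14.5 and Irgm1, a regulator of the others, had 11.7. In the 1000 bp around the start, 62.2% of the words at Igtp and Irgm2 and 60% at Iigp1 occur once, against 100% at Irgm1.

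The remaining effectors held several of the strongest peaks of the set. Bst2 (tetherin, which holds budding virions at the cell surface) had 25.1, Rsad2 (viperin, which makes a chain-terminating nucleotide) had 25.01 with a −log10 p of 560, Xaf1 (a partner of the apoptosis inhibitor XIAP) had 23.6, and Ifi35 had 21.8. Isg20, an exonuclease, had 14.01 with its summit at +516 from the principal TSS and −41 from another annotated start. Cmpk2, a nucleotide kinase encoded next to Rsad2, had 13.7. Samhd1, which hydrolyses the nucleotides that reverse transcription needs, had 8.24. Bst2, Rsad2, Isg20 and Samhd1 had an ISRE core in a promoter peak. That of Samhd1 lay near an internal start, in a peak at +5.52 kb from the principal TSS, with a signal of 4.45.

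In all, 8 of the 35 genes with a promoter peak had neither an ISRE core nor a GAS core in one. They were Ifit2, Trim25, Parp14, Mx1, Gbp4, Irf7, Cmpk2 and Xaf1, with signals from 6.39 at Parp14 to 23.9 at Trim25. The share of coding genes with neither core was not computed.

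The thresholded peaks had all passed a limit on agreement between both inputs of the IDR ranking. The −log10 IDR of the 49 promoter peaks ran from 1.57 to 3.83 with a median of 3.18, against a median of 2.82 over all thresholded peaks. The higher of the −log10 p values of both inputs was a median of 1.08 times the lower at the peaks nearest the principal TSS in the set, against 1.13 times at those of coding genes and 1.16 times over all thresholded peaks. In the set it was 1.95 times at most, at Samhd1 (88.1 and 45.1). Gbp3 followed, with 36.3 and 63.5. Whether these inputs were the technical replicates is not given in the sources used here.

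Further open sites lay around the genes. Within 20 kb of the gene body or inside it, the median was 4 thresholded peaks per gene (range 0 to 10), against 2 in coding genes, at a median locus length of 55.6 kb and 57.4 kb. At least 1 peak lay in the locus of 38 genes (95.0%), against 69.8%, and the exceptions were Oas1a and Ifi44. A distal peak, beyond 1 kb of the TSS of any gene, was in the locus of 28 (70.0%), against 45.1%. In the pseudoreplicated list 40 of 40 genes had a peak in the locus, against 75.2%, and 32 (80%) had a distal one, against 60.5%. The genes lie in clusters, so neighbours share peaks: the 40 loci held 135 distinct thresholded peaks, of which 49 were at promoters of the set, 26 at promoters of other genes alone and 60 distal.

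Irgm2 had 10 peaks and Igtp 9 in overlapping loci, followed by Samhd1 with 8 and Gbp5 with 7. At the other end, Xaf1 had its promoter peak alone. Of the 38 loci with a peak, 14 had the strongest within 1 kb of the principal TSS, a count not made for coding genes. Elsewhere the strongest often belonged to another promoter: in the locus of Oasl1 it had 28.7 and lay 18 bp from a start of 2210016L21Rik, a gene named here after its values were seen.

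Few distal peaks of these loci held an ISRE core. It was in 9 of 60 (15%), against 6.56% of all distal peaks, and the GAS core was in 6 (10%), against 7.05%. The RUNX letters, frequent at distal open sites of these cells at 26.4%, were in 7 of the 60 (11.7%). The AP-1 letters were in 6 (10%), against 13.0%, and the ETS-IRF composite in 0 of 60, against 2.73%. In the pseudoreplicated list, with 114 distal peaks, the ISRE core was in 16 (14%), against 6.18%, and the GAS core in 10 (8.77%), against 7.13%. There the RUNX letters were in 22 (19.3%), against 25.5%, the AP-1 letters in 8 (7.02%), against 12.8%, and the ETS-IRF composite in 3 (2.63%), against 2.64%. Among the 9 thresholded distal peaks with an ISRE core were a peak of 18.4 at chr16:35918313-35919633, at +20.3 kb from the principal TSS of Dtx3l and −19.6 kb from that of Parp9, and a peak of 12.1 at chr11:58183598-58184271, 15.8 kb upstream of the principal TSS of Igtp, which also held a GAS core. Samhd1 had 2 such peaks, at +3.88 kb (5.24) and −3.23 kb (6.03).

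**Figure D5:**
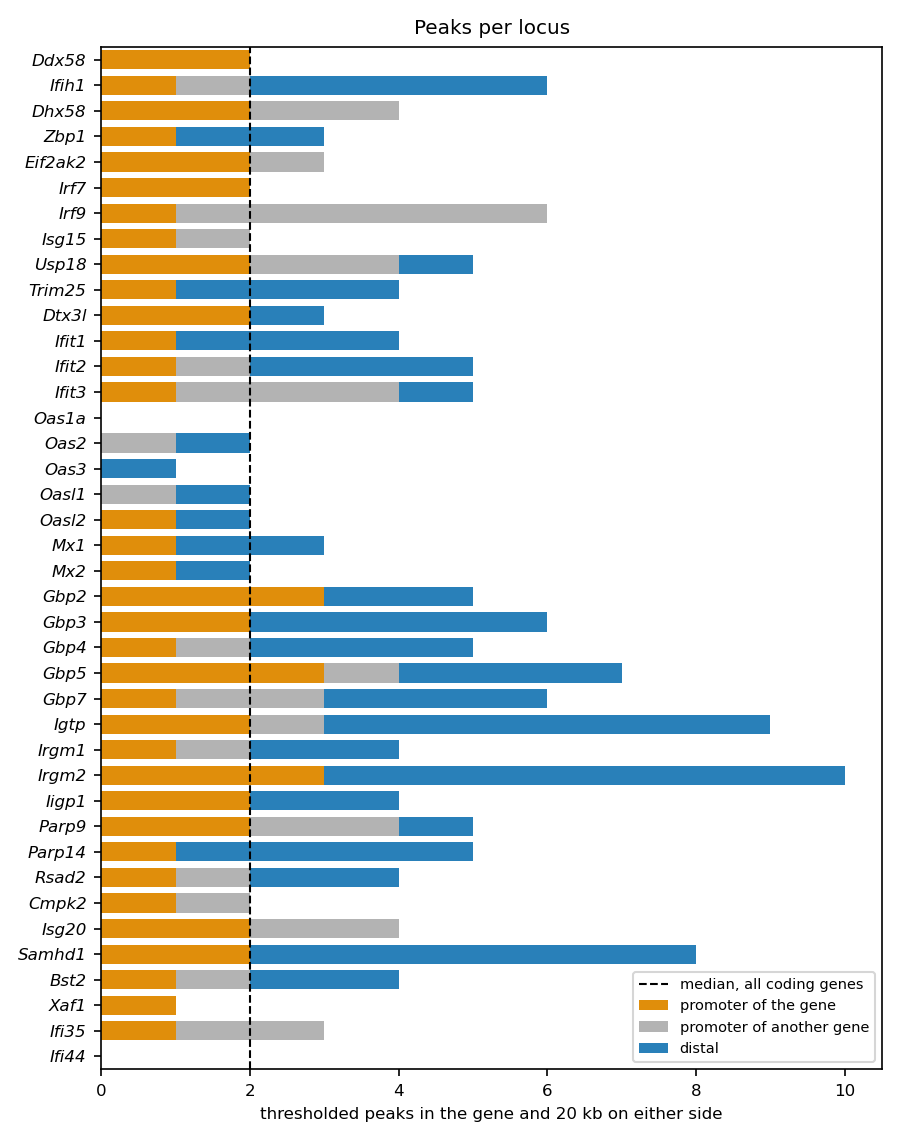
Number of thresholded peaks in each gene and 20 kb on either side, split into peaks at the gene's own promoter (orange), at the promoter of another gene (grey) and distal (blue). The dashed line is the coding-gene median of 2; Irgm2 has 10 and Oas1a and Ifi44 have 0.

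Most receptors, kinases and factors that lead to these genes had a promoter peak, and the interferon genes had none in the thresholded list. Of 73 other genes of the interferon pathway, 50 (68.5%) had a thresholded promoter peak, against 51.9% of coding genes. Of 9 interferon genes 0 had one, Ifnb1, Ifna1 and Ifna2 among them, although each of the 9 had a peak in its locus. In the pseudoreplicated list 1 of 9 had a promoter peak, Ifng (5.42), named after its value was seen. Of 6 receptor chains 5 had one, led by Ifnar1 (19.6), Ifngr1 (17.0) and Il10rb (13.9), and Ifngr2 had none in the thresholded list. All 5 JAK-STAT genes had one, with 29.0 at Stat2, 18.9 at Jak1 and 15.1 at Tyk2. Of 7 further IRF genes 6 had one, among them Irf8 (24.3), Irf3 (21.4) and Irf1 (15.8), and Irf5 had none in the thresholded list. In the pseudoreplicated list the strongest promoter peak had 5.1 at Irf5 and 4.4 at Ifngr2.

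Sensors and adaptors outside the set had a thresholded promoter peak at 10 of 12 genes, among them the adaptors Mavs (25.8) and Myd88 (20.9), while Tlr3 and Tlr9 had none. The peak counted for the DNA sensor Aim2 (22.4) lay 69656 bp from its principal TSS, near another annotated start. The 7 negative regulators all had one, led by Adar (23.2), which edits double-stranded RNA, Pias1 (17.0) and the phosphatase gene Ptpn6 (15.3). Socs1, an inhibitor of JAK kinases that interferon induces, had 5.84, with its summit at −978 from the principal TSS. Of 27 further members of the same gene families 17 had a thresholded one, and Oas1g, Gbp2b and Gbp11 had none. The strongest were at the antibody receptor Trim21 (31.98), Trim30a (27.0) and the shared start of Oas1b and Oas1c (26.9).

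An ISRE core lay in a promoter peak of 4 of the 37 receptor, JAK-STAT, IRF, sensor and regulator genes (10.8%), against 1.67% of coding genes. By list it was in 0 of 6 receptor genes, 0 of 5 JAK-STAT genes, 2 of 7 IRF genes, 1 of 12 sensors and adaptors and 1 of 7 regulators, against 11 of 27 family members and 25 of the 40 genes of the set. Irf1 had a GAS core at its promoter peak, and Stat2 had neither element there.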

How the data were processed

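The 3 deposited peak lists (IDR-thresholded, pseudoreplicated and IDR-ranked) cover both libraries pooled, in narrowPeak format on mm10 per the labels. The signal of a peak is the authors' enrichment value, and its reference is not given in the sources used here. The deposited −log10 p of each peak is the authors' value and served to describe and filter peaks. Of the scores the authors deposited, the −log10 IDR was used. For aligner, caller, any Tn5 shift and read depth, too, no source used here gives a statement.

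Lines sharing an interval were reduced to 1 peak at the summit of highest signal, with 1-based coordinates. TSSs came from GENCODE M21 and sequence from the GRCm38.p6 genome, the assembly of mm10. Motifs were searched on both strands. Uniqueness is the share of 32-base words in 1000 bp that occur once in the genome. Python 3.11.15, pandas 2.3.3, numpy 2.4.6 and pysam 0.24.0 were used, and the functions were tested on simulated data.

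All 40 genes are named. Each of 7 lists of other pathway genes gives its 3 strongest promoters and the first 3 genes, or fewer, that lack a peak there, plus Stat2, Irf1 and Socs1, and genes whose TSS lies within 1 kb of one of the set. Sequences are those of up to 8 genes with the strongest peak that holds an ISRE core and up to 4 with the stricter GAS, none from chromosome 18; others are marked. Some genes of the marker and pathway lists are not reported here. The members and lists were chosen with earlier results of these data known. The 2 libraries share 1 sample, so no test between samples was possible. Shares of coding genes or peaks stand beside the main counts. Some counts within the set, such as those of peak placement, were not computed for coding genes.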

Additional observations from a re-analysis of the deposited data

How the results depend on the processing

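Of 62 alternatives over 9 results, 49 stayed within 1.5 times of the reported value. A count of 35 among 40 genes cannot rise by that factor, and the background of all coding genes was among the 9 results. The genes of the set with a promoter peak, 35 as reported, numbered between 25 (peaks of at least the median signal) and 39 (pseudoreplicated list). The median signal removed Ifit3, Isg15, Parp14, Mx2, Gbp2, Gbp4, Gbp5, Irgm1, Dhx58 and Samhd1, and the median −log10 p removed Parp14 and Dhx58. A window of 2500 bp added Oas3 and Oasl1, and counting only summits closest to a TSS of the gene itself removed Ifit1. Among the 33 genes with at least 80% unique words, an alternative chosen after seeing the data, 29 had a promoter peak (87.9%). At the median signal, 30 of the other pathway genes had one (41.1%, against 38.6% of coding genes), so their share was then near that of coding genes, and 18 of the 40 genes of the set had a distal peak, against 29.3% of coding genes. The median number of peaks per locus, 4 as reported, was 2 with 5 kb flanks (coding genes 1), 2 with the median signal (1), 2 with the median −log10 p (1) and 7 with every line counted. Promoter peaks with an ISRE core, 25 as reported, numbered 16 with the stricter letters, and promoter sequences numbered 13. The ISRE core was in 17 promoter peaks in 100 bp (34.7%, against 1.75% of promoter peaks) and 25 in 400 bp (51.0%, against 4.96%). In the whole interval it was in 27 (55.1%), against 10.1%, so the background rose more than the set. Promoter peaks with a GAS core, 10 as reported, numbered 5 in 100 bp (10.2%, against 2.15% of promoter peaks), 16 in 400 bp (32.7%, against 9.08%), 17 in the whole interval (34.7%, against 18.6%) and 3 with the stricter letters, and promoter sequences with the stricter GAS numbered 2. Fewer peaks, wider windows and stricter letters change these counts by construction. Without read counts, no limit can be given for a gene without a peak. No paired analysis was possible because there is 1 group and the lists pool both libraries.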

Other observations

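The set was also compared with all coding genes whose promoter peak holds an ISRE core. It has 39 of the 21938 coding genes, so its share of that larger list is limited by its size. Of the 39 protein-coding genes of the set, 24 (61.5%) had an ISRE core in a thresholded promoter peak, and they made up 6.56% of the 366 coding genes that did. With the stricter letters the overlap was 16 genes, 41% of the set and 23.9% of the 67 coding genes. Family members outside the set with the stricter ISRE in a promoter peak included Ifi27, Trim30a, Ifit3b and Gm4951. Their signals were 26.6, 27.0, 11.4 and 9.99 (genes named after these values were known). Oas1b and Oas1c, given above, and Ifit1bl2, through the peak it shares with Ifit1, also had it. The strongest thresholded peak of the OAS cluster, 36.6, lay 81.4 kb from the principal TSS of Oas2, between Oas1b and Oas1f, and held no ISRE core.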
